A study of Mus musculus with 18 samples.

Results

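The endothelial identity genes described here are Pecam1, Cdh5, Emcn, Egfl7, Erg, Sox17, Sox18, Plvap, Nos3 and Aplnr. They were chosen by name as genes that mark endothelial cells, and their Ensembl identifiers were matched to mouse symbols in the count table. They are 10 of its 30583 genes, and all 10 passed the filter on low counts, which kept 16311 genes. Their levels were followed in mouse left ventricle after myocardial infarction (MI), which was made by ligating the left anterior descending coronary artery. The 18 mice were C57BL/6JR males, 12 weeks old, all anaesthetised with sodium pentobarbital for the operation and with isoflurane before tissue was taken. Of these, 3 were sham operated, with the suture passed but not tied (called 0 h in the labels), and 3 were sampled at each of 5 times after ligation: 10 min, then 1 h and 6 h, then 24 h and finally 72 h. Each mouse gave 1 poly(A) RNA-seq library from the left ventricle, taken from the infarcted region in the ligated mice. No group carried a genetic change, and no unoperated mice were included.

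Endothelial cells line every vessel of the heart and form the wall of the dense capillary bed that runs between cardiomyocytes. Their identity is kept by transcription factors of the ETS and SOX families, which act on genes for cell junctions, surface glycoproteins and vasoactive enzymes. Ligation stops flow in the vessels below the tie, and in the days that follow vessels in and around the infarct are lost and re-formed.

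The libraries held 18199172 to 25062351 counts. The labels name both myocardial tissue and cardiomyocytes, but describe no cell separation, and the libraries held RNA of many cell types: in sham hearts 8 cardiomyocyte markers summed to 56922 to 62113 normalised counts-per-million (CPM, scaled for library composition by edgeR's TMM factors), 26 pan-endothelial genes other than the 10 to 2619 to 2731, and 10 leukocyte markers to 195.8 to 213.9. In such bulk tissue, fewer endothelial cells and less RNA of a gene per endothelial cell cannot be told apart. The share of mitochondrial counts ran from 8.41% to 27.4%, and was lowest in the 72 h libraries. TMM factors, which correct for a library whose composition differs, ran from 0.825 to 1.43, with the 72 h libraries highest. At 6 h, replicate 1 stood apart from the other two, with leukocyte markers at 974 CPM against 495 and 266, and without it the genes called at 6 h numbered 2926 in place of 4639. For the 10 genes, results that rest on this 6 h library are given below with their value when it was left out. Among the gene lists, only the 6 h counts of nitric oxide pathway genes and other pan-endothelial genes are also given without it. All other 6 h values of the lists include it. At 24 h, replicate 3 also stood apart, with leukocyte markers at 1373 CPM against 666 and 552. Its platelet markers were at 104.9 CPM against 56.1 and 40.2.

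All 10 genes are protein-coding. On GRCm38 (mm10) Pecam1 (ENSMUSG00000020717) lies at chr11:106654217-106750628 on the minus strand, Cdh5 (ENSMUSG00000031871) at chr8:104101625-104144511 on the plus strand, and Emcn (ENSMUSG00000054690) at chr3:137341067-137432185 on the plus strand. Egfl7 (ENSMUSG00000026921) lies at chr2:26580014-26593120 on the plus strand, Erg (ENSMUSG00000040732) at chr16:95359169-95586593 on the minus strand, and Sox17 (ENSMUSG00000025902) at chr1:4490931-4497354 on the minus strand. Sox18 (ENSMUSG00000046470) lies at chr2:181669836-181671640 on the minus strand and Plvap (ENSMUSG00000034845) at chr8:71497765-71511752 on the minus strand. Nos3 (ENSMUSG00000028978) lies at chr5:24364810-24384474 and Aplnr (ENSMUSG00000044338) at chr2:85136225-85139923, both on the plus strand. Egfl7 shares 64 exon bases with Agpat2 on the other strand, which had 13815 counts over the 18 libraries. Nos3 shares 1040 with the antisense gene Gm15587 (115 counts) and 294 with Atg9b (532 counts), and Sox17 shares 804 with Gm37587 (43 counts). Whether the authors counted by strand is not given in the sources used here, so reads from these shared bases may have been assigned to either gene, or to neither. Egfl7 also shares 264 exon bases with the protein-coding gene Gm20532 on its own strand, where counting by strand would not separate the 2. Gm20532 has no entry among the genes counted.

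Promoter sequence shows where a family of endothelial regulators could be read in these genes. ETS factors, among them the member Erg, recognise a core that can be spelled AGGAAG, and RefSeq promoter entries (GRCm38.p6) were at hand for 3 of the 10 genes. The 250 bases before the annotated start are printed 5′ to 3′ on the gene's own strand, with AGGAAG or its reverse complement in capitals. The windows are chr3:137340828-137341077 (plus) for Emcn, chr2:26580833-26581082 (plus; the most upstream of 3 listed starts in the table) for Egfl7, and chr16:95586594-95586843 (minus) for Erg. The starts are those of RefSeq. The Egfl7 window lies inside the gene span given above, downstream of its first base at 26580014.
Emcn: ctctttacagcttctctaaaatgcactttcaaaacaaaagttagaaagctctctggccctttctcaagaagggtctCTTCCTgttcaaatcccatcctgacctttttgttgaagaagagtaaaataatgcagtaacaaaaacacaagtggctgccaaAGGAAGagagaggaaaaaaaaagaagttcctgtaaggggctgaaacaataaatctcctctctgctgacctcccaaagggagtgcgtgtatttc
Egfl7: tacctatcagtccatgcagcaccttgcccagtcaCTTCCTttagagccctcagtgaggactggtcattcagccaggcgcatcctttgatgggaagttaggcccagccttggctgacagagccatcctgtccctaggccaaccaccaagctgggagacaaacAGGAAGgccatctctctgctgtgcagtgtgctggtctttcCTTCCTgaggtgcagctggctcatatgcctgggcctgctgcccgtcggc
Erg: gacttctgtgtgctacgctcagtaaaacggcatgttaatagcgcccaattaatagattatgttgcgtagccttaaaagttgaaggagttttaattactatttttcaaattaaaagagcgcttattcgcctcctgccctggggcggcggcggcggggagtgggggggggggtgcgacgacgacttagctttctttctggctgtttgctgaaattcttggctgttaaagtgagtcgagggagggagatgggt
Emcn held 2 matches, at -93 to -88 from the start and, on the other strand, at -174 to -169. Egfl7 held 3, at -89 to -84 and, on the other strand, at -216 to -211 and -49 to -44. Erg's own window held none. Of 32851 mouse promoter windows of this length 29.5% held AGGAAG on either strand, so a match is a description of the letters and not of binding. The SOX core ACAAAG (16.5% of windows) and the GATA core AGATAA (9.99%), searched on both strands, matched none of the 3 windows.

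Egfl7 also contains the gene of an endothelial microRNA, printed with its seed (bases 2 to 8) in capitals because it is made from the same locus as the member. The RefSeq mature sequence lies at chr2:26591402-26591423 on the plus strand.
mmu-miR-126a-3p: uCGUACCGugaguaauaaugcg
Small RNAs of this length are not measured by poly(A) RNA-seq, and the microRNA's level was not analysed here.

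Sham and MI were compared at each time with edgeR's quasi-likelihood test, with Benjamini-Hochberg adjustment over the 16311 genes, and a gene was called at an adjusted p under 0.05. None of the 10 genes was called in the first hour, and the later movements differed between them. Plvap rose 6.38-fold by 72 h, Aplnr fell 5.88-fold by 6 h and 2.75-fold by 24 h, and Sox17 rose 2.14-fold at 6 h. Emcn was called lower from 6 h on with TMM scaling, but its 72 h call was lost when libraries were scaled to their totals. Sox18 was not called in any comparison. At 72 h a further 5 genes were lower with TMM scaling, by 1.28 to 1.61-fold, and the direction of 4 of these 5 depended on the scaling. In each comparison with sham the same 3 sham libraries served, so the comparisons are not independent of each other.

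**Figure D1:**
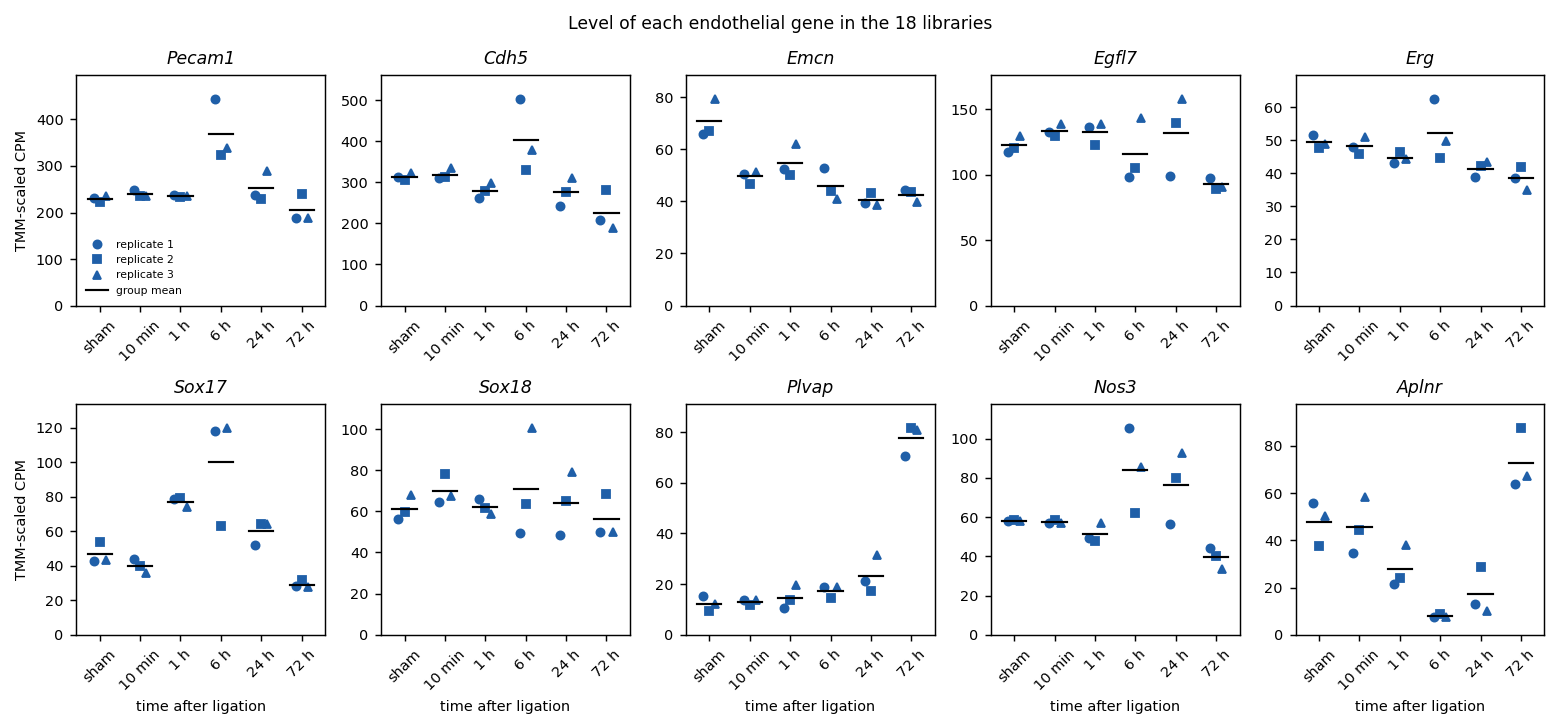
Level of each of the 10 genes in all 18 libraries. Each panel is 1 gene, with TMM-scaled CPM on a linear axis from 0 and time after ligation along the horizontal axis; points are single mice and bars are group means. Plvap is highest in all 3 mice at 72 h, Aplnr lowest in all 3 mice at 6 h, and Emcn above every MI library in all 3 sham mice.

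At 10 min none of the 10 genes was called by edgeR (0.0736% of all genes tested were called), and 1 had an unadjusted p under 0.05. DESeq2 called 1, Emcn, and limma none. At 1 h edgeR again called none (0.294% of all genes), with 3 at an unadjusted p under 0.05. DESeq2 then called 1, Sox17, and limma none. At 6 h 5 genes were called, where 28.4% of all genes were called: 3 were higher (16.3% of all genes) and 2 lower (12.2%). At 24 h 3 were called, beside 43.8% of all genes: 1 was higher (23.7%) and 2 were lower (20.2%). At 72 h 7 were called, beside 66.4% of all genes: 1 was higher (34.2%) and 6 were lower (32.2%). The count at 24 h was below the background share, and the count at 72 h was near it. Over the 10 genes the median log2 fold change was 0.00, -0.06, 0.29, 0.09 and -0.38 at the 5 times in order, while the median over all genes tested lay between -0.01 and 0.03.

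The level of 9 of the 10 genes differed somewhere among the 6 groups by edgeR's F test, beside 78.4% of all genes. Sox18 was the exception, with an adjusted p of 0.64. Between consecutive times, 1 gene was called from 10 min to 1 h (0.307% of all genes), and it was higher (0.251%). From 1 h to 6 h 4 were called (24.5%), 3 higher (14.5%) and 1 lower (10.0%). From 6 h to 24 h 5 were called (27.8%), 1 higher (14.2%) and 4 lower (13.7%). From 24 h to 72 h 5 were called (50.5%), 2 higher (24.4%) and 3 lower (26.1%). Fitted on the 6 libraries of 6 h and 24 h alone, none of those 5 was called. Libraries of sham and MI did not overlap in CPM for 2 of the 10 genes at 10 min (20.0% of all genes), 5 at 1 h (16.9%), 6 at 6 h (44.3%), 4 at 24 h (53.7%) and 8 at 72 h (75.8%). Between consecutive times they did not overlap for 2 genes from 10 min to 1 h (16.8% of all genes), 4 from 1 h to 6 h (38.9%), 4 from 6 h to 24 h (32.6%) and 5 from 24 h to 72 h (54.0%).

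**Figure D2:**
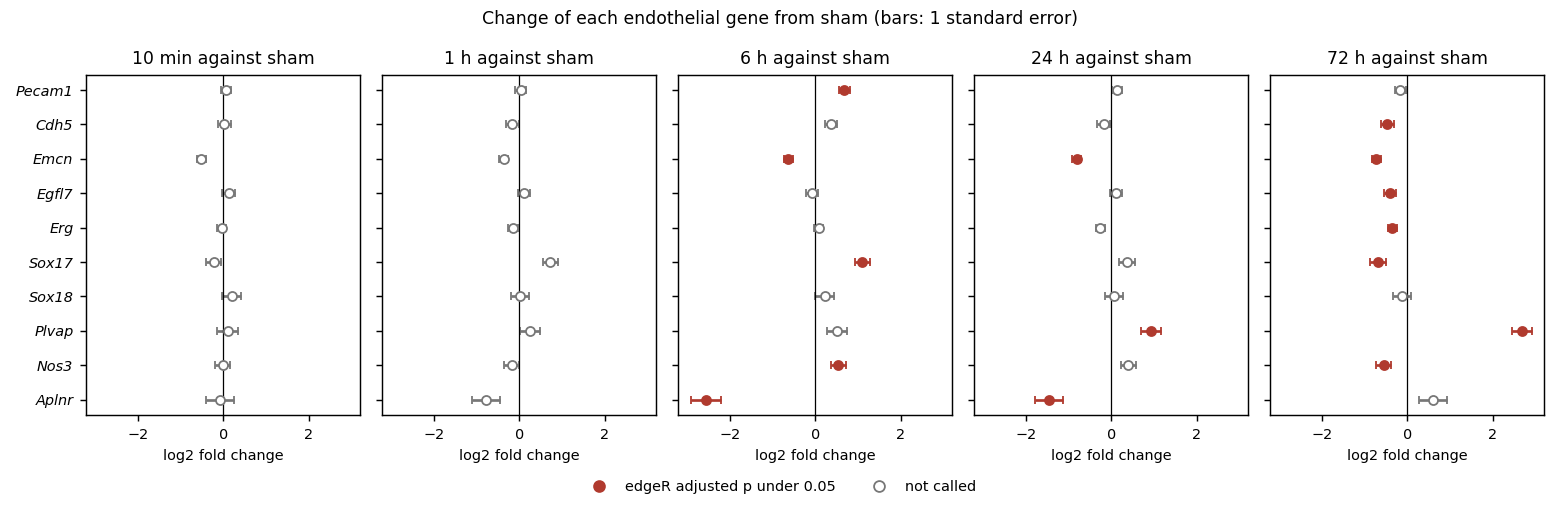
Log2 fold change of each gene from sham at the 5 times after ligation, from the edgeR fit. Each panel is 1 time, each row 1 gene, and bars span 1 standard error either side. At 72 h Plvap lies at 2.67 and Emcn at -0.73, and at 6 h Aplnr lies at -2.55.

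Pecam1 encodes CD31, an adhesion molecule of the endothelial junction that leukocytes and platelets also carry. It rose at 6 h and was back near the sham level at 24 h. Its CPM was 230.3, 222.7 and 235.5 in the sham mice and 443, 323 and 338 at 6 h. All 3 libraries at 6 h were above every sham library, with replicate 1 the highest. The log2 fold change was 0.68 (SE 0.12, edgeR adjusted p = 0.000579), and it was 0.52 without replicate 1 of 6 h. At 24 h the 3 libraries held 238, 229.7 and 289.7, which overlapped the sham range. At 72 h they held 189, 239 and 187, and the log2 fold change was -0.16 (adjusted p = 0.254), or 0.42 (adjusted p = 0.00315) when libraries were scaled to their totals. Leukocyte markers moved beside it: 8 of 10 rose at 6 h and all 10 at 24 h and 72 h, their sum running from 266 to 974 CPM at 6 h, 552 to 1373 at 24 h and 2811 to 3681 at 72 h. Of 6 platelet markers tested, 3 rose at each of these times. Of all genes tested, 16.3% were called higher at 6 h, 23.7% at 24 h and 34.2% at 72 h. The sum of 7 platelet markers ran from 18.6 to 19.99 CPM in sham, 22.1 to 72.4 at 6 h and 141.2 to 156 at 72 h. No defining leukocyte marker was at 0 in any group, and the part of leukocytes and platelets in the Pecam1 level was not tested.

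Cdh5 encodes VE-cadherin, the cadherin of the endothelial adherens junction. The sham mice held 313, 306 and 322 CPM. At 6 h the mice held 502, 329.7 and 379, all above sham, but the change of 0.36 on the log2 scale (SE 0.15) was not called (edgeR adjusted p = 0.0752), although it was called at 0.49 (adjusted p = 0.0241) without replicate 2 of 6 h and at 0.36 (adjusted p = 0.0441) without replicate 2 of 72 h. Without replicate 1 of 6 h, the highest of that group, it was 0.18 (adjusted p = 0.435). At 72 h the mice held 207, 282 and 189, all below sham, and Cdh5 was called lower at -0.47 (SE 0.15, adjusted p = 0.00967), whereas scaling to library totals gave 0.11 (adjusted p = 0.496). Without replicate 3 of 72 h the change was -0.36 (adjusted p = 0.063).

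Emcn encodes endomucin, a sialylated surface glycoprotein of capillary and venous endothelium that hinders leukocyte adhesion. Its 3 sham libraries were above every one of the 15 MI libraries. It held 65.8, 66.9 and 79.2 CPM in sham, 50.6, 46.8 and 51.4 at 10 min, and 52.5, 50.04 and 62.0 at 1 h. At 6 h it held 52.6, 43.8 and 40.9, at 24 h 39.2, 43.2 and 38.7, and at 72 h 44.2, 43.8 and 39.7. Already at 10 min the groups did not overlap, with a log2 fold change of -0.51 (SE 0.11) and an edgeR adjusted p of 0.143. Emcn fell by 0.63 on the log2 scale at 6 h (SE 0.11, adjusted p = 0.000373) and by 0.81 at 24 h (SE 0.11, adjusted p = 2.06e-05). At 72 h it fell by 0.73 (SE 0.11, adjusted p = 8.16e-06), while scaling to library totals gave -0.15 (adjusted p = 0.245). The 10 min value was past the threshold with DESeq2 (adjusted p = 0.00733), in edgeR without replicate 1 of 6 h (adjusted p = 0.0495) and in a fit of the sham and 10 min libraries alone (adjusted p = 0.00197).

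Egfl7 encodes a secreted protein of the vessel wall. Sham mice held 117.5, 120.2 and 129.5 CPM, and the libraries of the first 24 h overlapped them, with a wide spread at 24 h (99.1, 139 and 157.6). At 72 h the 3 mice held 97.6, 89.4 and 90.9, all below sham. Egfl7 was called lower then at -0.40 (SE 0.14, edgeR adjusted p = 0.0191), whereas scaling to library totals gave 0.18 (adjusted p = 0.311). The call was lost without sham replicate 3 (-0.36, adjusted p = 0.0611), without 72 h replicate 2 (-0.38, adjusted p = 0.0556) and without 72 h replicate 3 (-0.39, adjusted p = 0.0517).

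The 3 transcription factors did not move together. Erg, the ETS factor named above, held 51.6, 47.7 and 49.0 CPM in sham, and its 6 h libraries (62.4, 44.5 and 49.6) lay on both sides of that range. At 24 h it held 38.8, 42.1 and 43.4 and at 72 h 38.7, 41.9 and 35.1, below sham in every mouse. The change at 24 h was -0.25 (SE 0.11, edgeR adjusted p = 0.0582), and that at 72 h was called at -0.36 (SE 0.11, adjusted p = 0.00584), whereas scaling to library totals gave 0.23 (adjusted p = 0.0675). The 24 h change was past the threshold without replicate 1 (adjusted p = 0.022) or replicate 2 (adjusted p = 0.0369) of 6 h and with upper-quartile scaling (adjusted p = 0.0251). Fli1, its closest relative, was at -0.02 at 72 h (adjusted p = 0.873), or at 0.56 (adjusted p = 0.000598) with library totals.

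Sox17 encodes an SRY-related factor of arterial specification. It was high at 1 h and 6 h and low at 72 h. Sham mice held 42.8, 54.04 and 43.3 CPM and mice at 10 min 44.2, 39.7 and 36.0. At 1 h they held 78.8, 79.1 and 73.9, at 6 h 118.01, 63.0 and 119.6, at 24 h 52.1, 64.02 and 64.2, and at 72 h 28.04, 31.5 and 27.7. Every 1 h library was above every sham and 10 min library. The change against sham at 1 h was 0.73 on the log2 scale (SE 0.18) with an edgeR adjusted p of 0.172. It was past the threshold with DESeq2 (adjusted p = 0.0244) and in edgeR without replicate 2 of 6 h (adjusted p = 0.0019). In an edgeR fit of the sham and 1 h libraries alone it was also called (adjusted p = 0.000281). Sox17 rose by 1.10 at 6 h (SE 0.18, adjusted p = 0.00032), and its 24 h value of 0.36 was not called (adjusted p = 0.109) except without replicate 2 of 6 h (adjusted p = 0.0115) and with library totals or limma. At 72 h it was called lower at -0.68 (SE 0.18, adjusted p = 0.00297), or -0.10 (adjusted p = 0.628) with scaling to library totals.

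Sox18, a relative in the same SOX subgroup that acts in vascular and lymphatic development, held 56.2, 59.6 and 67.7 CPM in sham. At 6 h it held 49.5, 63.3 and 100.3, and at 72 h 50.03, 68.5 and 49.8. Its groups overlapped sham at all 5 times, with log2 fold changes from -0.12 (72 h) to 0.22 (6 h) and standard errors of 0.21 to 0.22, a spread in which a smaller difference was not detectable. Scaling to library totals put it at 0.46 at 72 h (adjusted p = 0.0961). Sox7, the remaining factor of that subgroup, fell by 0.63 on the log2 scale at 24 h (edgeR adjusted p = 0.00244) and by 1.07 at 72 h (adjusted p = 4.05e-06).

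Nos3 encodes endothelial nitric oxide synthase, which makes the vasodilator nitric oxide from arginine. The 3 sham mice were within 57.8 to 58.4 CPM. At 6 h Nos3 held 105.3, 62.01 and 85.6, above every sham library, and at 24 h 56.3, 79.7 and 93.0. The rise at 6 h was 0.54 on the log2 scale (SE 0.17, edgeR adjusted p = 0.0275). That call was lost when any 1 sham library was left out (0.53 to 0.54, adjusted p = 0.067 to 0.0735), without 6 h replicate 1 (0.35, adjusted p = 0.173), without 6 h replicate 3 (0.53, adjusted p = 0.0614) and with library totals (0.42, adjusted p = 0.0724). It was also lost with limma on log2(FPKM + 1) (0.37, limma adjusted p = 0.12) and on log2(FPKM + 0.1) (0.39, limma adjusted p = 0.109). The 24 h value of 0.39 was not called (adjusted p = 0.0727), but was called at 0.59 (adjusted p = 0.00715) without replicate 1 of 24 h, and without replicate 1 (adjusted p = 0.0432) or replicate 2 (adjusted p = 0.0336) of 6 h. Without replicate 3 of 24 h it was 0.23 (adjusted p = 0.331). At 72 h it held 44.4, 40.4 and 33.5, all below sham, and was called lower at -0.56 (SE 0.17, adjusted p = 0.009), whereas scaling to library totals gave 0.03 (adjusted p = 0.9). Of 20 genes of the nitric oxide pathway, Nos3 included, 6 rose and 3 fell at 6 h, beside 16.3% and 12.2% of all genes. Without replicate 1 of that time 3 rose and 3 fell. At 24 h 6 rose and 4 fell, beside 23.7% and 20.2% of all genes. At 72 h 7 rose and 7 fell (12 and 1 with library totals), near the 34.2% and 32.2% of all genes with TMM scaling. The pair with the highest level per length, the chaperone Hsp90ab1 and the calmodulin gene Calm3, went opposite ways at 72 h, by -0.59 and 0.41, but library totals put Hsp90ab1 at -0.01 (adjusted p = 0.96).

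Plvap encodes the protein of the diaphragms that close endothelial fenestrae and caveolae, and is normally low in the continuous capillaries of the heart. It held 15.2, 9.18 and 12.04 CPM in sham, 13.7, 11.6 and 13.9 at 10 min, and 10.4, 13.6 and 19.5 at 1 h. At 6 h it held 18.6, 14.4 and 19.0, at 24 h 21.1, 17.3 and 31.3, and at 72 h 70.5, 81.4 and 80.7. All 3 mice at 72 h were above every other library. Plvap rose by 0.93 on the log2 scale at 24 h (SE 0.23, edgeR adjusted p = 0.00464) and by 2.67 at 72 h (SE 0.24, adjusted p = 6.27e-08), and the 72 h change ran from 2.50 to 3.26 over all alternatives tried. Cell cycle genes rose beside it, 8 of 8 at 24 h (23.7% of all genes) and at 72 h (34.2%). Their summed CPM went from 2.18 to 4.04 in sham to 233 to 330.1 at 72 h. Their part in the Plvap level was not tested.

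Aplnr encodes the G protein-coupled receptor for apelin and elabela, used by sprouting and venous endothelium. Its level was lowest at 6 h and highest at 72 h. Sham mice held 55.7, 37.6 and 50.5 CPM, mice at 10 min 34.4, 44.2 and 58.4, and mice at 1 h 21.6, 24.2 and 38.1. At 6 h it held 7.69, 8.99 and 7.72, at 24 h 13.03, 28.8 and 10.003, and at 72 h 63.8, 87.4 and 67.1. All libraries at 6 h and 24 h were below every sham library, with replicate 2 of 24 h the closest to it. Aplnr fell by 2.55 on the log2 scale at 6 h (SE 0.36, edgeR adjusted p = 0.000181) and by 1.46 at 24 h (SE 0.34, adjusted p = 0.00316). All 3 mice at 72 h were above every sham mouse, but the change of 0.60 (SE 0.32) was not called (adjusted p = 0.113). It was called in a fit of the 6 libraries compared (adjusted p = 0.00611), without replicate 2 of 24 h (adjusted p = 0.0272) and with scaling to library totals (1.19, adjusted p = 0.00912).

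The ligand Apln, which endothelial tip cells release, held 14.0 ± 1.83 CPM in sham (SD, n = 3), 22.5 ± 6.21 at 6 h, 50.3 ± 31.1 at 24 h and 25.4 ± 7.35 at 72 h. It rose by 1.84 on the log2 scale at 24 h (edgeR adjusted p = 0.000653) and by 0.86 at 72 h (adjusted p = 0.0344), and its value at 6 h was 0.69 (adjusted p = 0.146). At 24 h, when the mean level of the ligand was highest, the receptor was below sham. The second ligand, Apela, had no count in any library of the first 6 h and did not pass the filter on low counts.

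Levels between genes were compared per length, as FPKM, which divides CPM by gene length in kilobases, and with the same TMM scaling. In sham hearts Cdh5 led with 74.6 ± 1.96 (SD, n = 3), above every library of any other member. Sox18 (37.8 ± 3.65), Pecam1 (36.9 ± 1.03) and Egfl7 (34.2 ± 1.75) followed, each overlapping the next. Erg (14.3 ± 0.568), Nos3 (14.0 ± 0.0885), Emcn (13.1 ± 1.37), Aplnr (13.0 ± 2.51) and Sox17 (9.79 ± 1.33) formed a second chain of overlapping neighbours. Plvap was the lowest at 6.11 ± 1.52 and did not overlap Sox17. At 6 h Aplnr was the lowest at 2.20 ± 0.201, below Emcn at 8.46 ± 1.13 without overlap. At 24 h Cdh5 (65.7 ± 8.19) was still highest, and Aplnr (4.67 ± 2.73) overlapped Emcn (7.46 ± 0.45) at the low end. By 72 h Plvap had moved from last to second place, at 39.0 ± 3.08, overlapping Sox18 (34.6 ± 6.62) and below Cdh5 (53.8 ± 11.7). Sox17 was then last at 6.09 ± 0.442, below Emcn at 7.87 ± 0.453 without overlap.

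Scaling mattered most at 72 h. Over all genes tested, the median log2 fold change then was 0.03 with TMM factors and 0.61 when libraries were scaled to their totals. It was 0.20 with library totals at 24 h and -0.12 at 6 h. The 10 genes had a median of -0.38 at 72 h with TMM factors and 0.20 with library totals, on each scale below the median of all genes. With library totals Pecam1 (0.33), Sox17 (0.57) and Nos3 (0.60) were called higher at 24 h in addition to the 3 genes called with TMM factors. With library totals 3 were called at 72 h in place of 7, and all 3, Pecam1 (0.42), Plvap (3.26) and Aplnr (1.19), were higher. Pecam1 was thus below the median of all genes on that scale (0.61). The shares of all genes called higher or lower with library totals are not given here. Over the 10 alternatives other than leaving out 1 library, 9016 to 11973 of all genes were called at 72 h, with 10831 in the main fit.

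**Figure D3:**
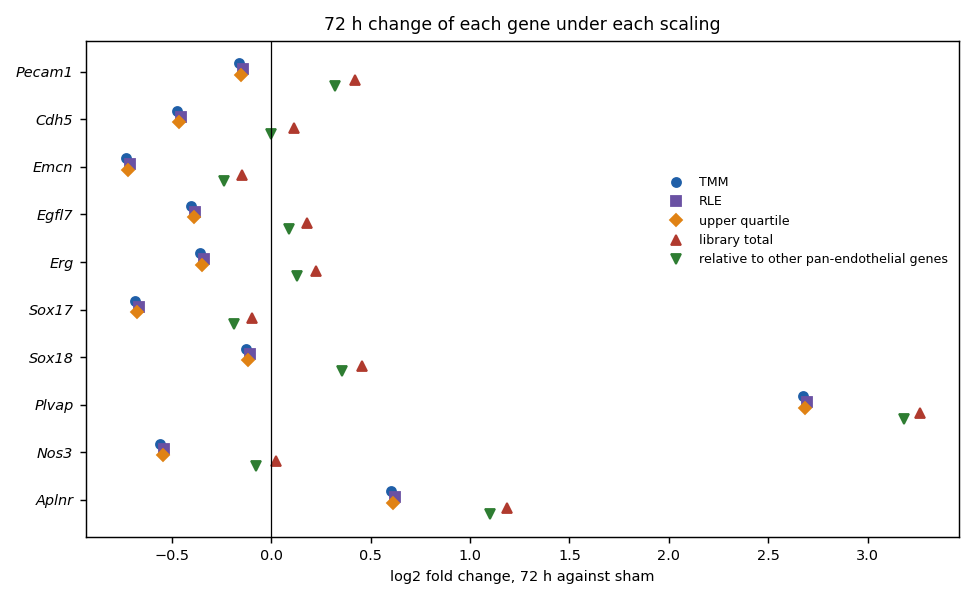
Log2 fold change at 72 h against sham of each of the 10 genes under each way of scaling the libraries. A further symbol gives the difference from sham in the level relative to the other pan-endothelial genes, described below. That measure is not a scaling of the libraries and has no test. The values for TMM, RLE size factors and upper quartiles lie close together, and those for library totals lie to the right of them by about the shift of all genes. Plvap lies between 2.67 and 3.26, while Cdh5, Egfl7, Erg, Nos3, Pecam1 and Sox18 lie on both sides of 0.

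Each gene's log2 CPM was also taken relative to the mean log2 CPM of the 26 other pan-endothelial genes in the same library. This measure was chosen after seeing the data and is given without a test. A scaling factor common to a library cancels in it. The 26 genes are not a fixed gauge of endothelial RNA. At 72 h 5 of them were called higher and 18 lower, and genes of such lists are also made by other cells of the heart. A relative value is therefore not a change per endothelial cell. The mean of the 26 genes differed from sham by 0.01, -0.05, 0.21, -0.10 and -0.49 on the log2 scale at the 5 times in order. Relative to it, Plvap was 1.01 higher than in sham at 24 h and 3.18 higher at 72 h, with no overlap between the groups. Aplnr differed by -0.75 at 1 h, -2.74 at 6 h, -1.50 at 24 h and 1.10 at 72 h, each without overlap. Emcn was lower without overlap at all 5 times, by -0.51, -0.31, -0.84, -0.71 and -0.24. Sox17 was higher without overlap at 1 h (0.79), 6 h (0.84) and 24 h (0.46), but overlapped sham at 72 h (-0.19).

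On the same relative scale several changes of the 72 h libraries were small. Cdh5 (-0.00), Egfl7 (0.09) and Nos3 (-0.08) overlapped sham there, while Pecam1 (0.32), Sox18 (0.35) and Erg (0.13) were higher without overlap. At 6 h Pecam1 (0.45), Nos3 (0.29) and Cdh5 (0.13) were higher without overlap. On this scale groups did not overlap for 2 of the 10 genes at 10 min (18.4% of all genes) and for 5 at 1 h (15.3%). The number was 6 at each later time, beside 44.0%, 45.7% and 76.7% of all genes.

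**Figure D4:**
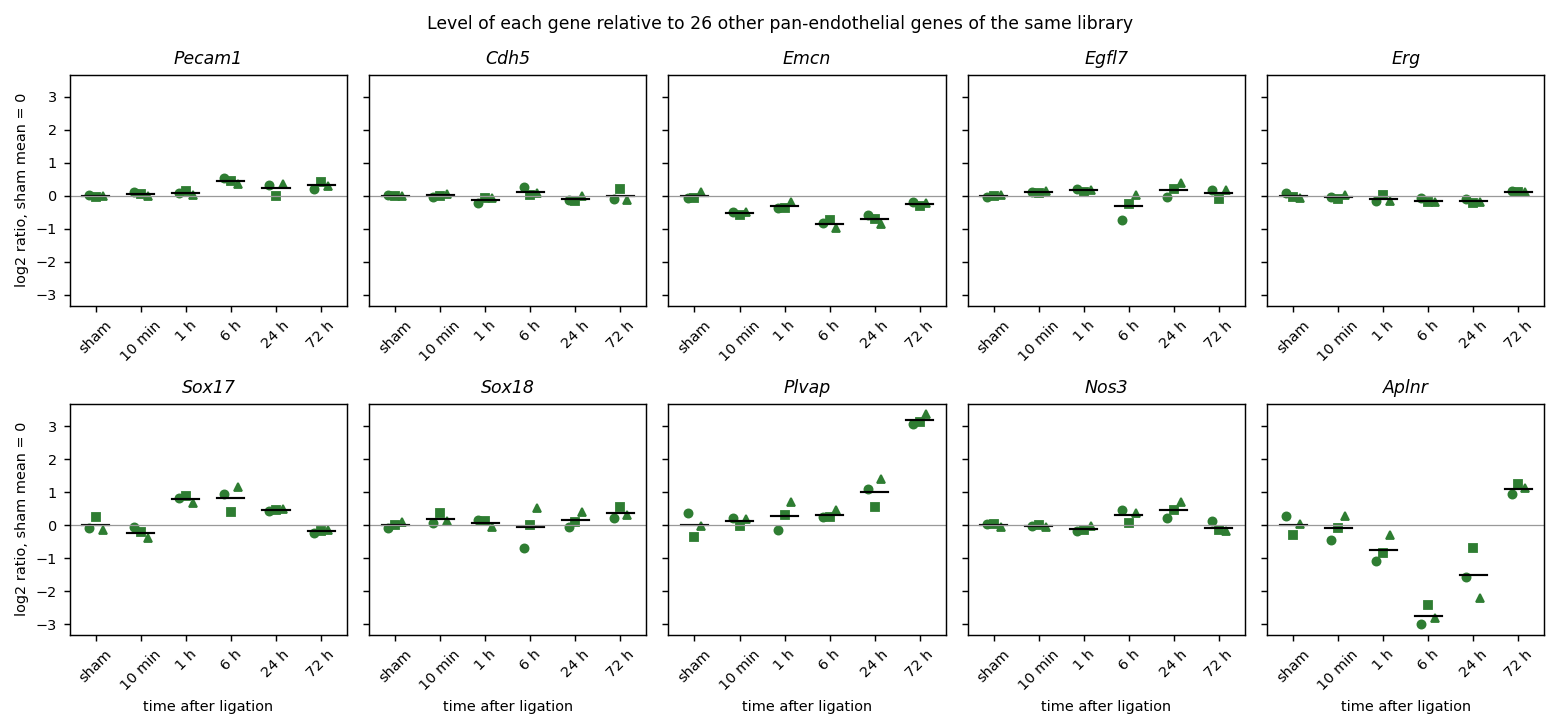
Level of each of the 10 genes relative to the mean of 26 other pan-endothelial genes in the same library, on a log2 scale with the sham mean set to 0. Points are single mice and bars are group means, with time after ligation along the horizontal axis. Plvap reaches 3.18 at 72 h, Aplnr goes from -2.74 at 6 h to 1.10 at 72 h, and Emcn is below 0 at all 5 times.

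Other endothelial gene lists were counted in the same fit. For these and the lists below, the shares of all genes called with TMM scaling serve as background. They were 16.3% higher and 12.2% lower at 6 h, 23.7% and 20.2% at 24 h, and 34.2% and 32.2% at 72 h. Counts given with library totals have no matching share here. That scaling moves the fold changes of all genes upwards at 72 h, so more higher calls with it are not particular to a list. Of the 26 other pan-endothelial genes 10 rose and 4 fell at 6 h, and 3 rose and 8 fell at 24 h. At 72 h 5 rose and 18 fell, or 7 and 8 with library totals, and the list's median log2 fold change was -0.67. Eng, a co-receptor of TGF-beta ligands, and S1pr1, a sphingosine-1-phosphate receptor, had the highest levels per length of the list. Eng rose by 0.31 at 6 h and fell by 0.40 at 72 h, and S1pr1 rose by 1.02 at 6 h and fell by 0.74 at 72 h, while library totals put them at 0.18 (adjusted p = 0.183) and -0.15 (adjusted p = 0.38) at 72 h. Without replicate 1 of 6 h, 6 of the 26 rose and 3 fell at that time. For the lists below, 6 h counts are given with that library included only.

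Of 23 endothelial transcription factors tested, which include Erg, Sox17 and Sox18, 2 were called at 1 h (0.294% of all genes). These were the flow-responsive factors Klf2 (2.83-fold, edgeR adjusted p = 0.00325) and Klf4 (2.70-fold, adjusted p = 0.000113), and both rose. At 6 h 7 rose and 2 fell, and at 24 h 3 rose and 4 fell (over the fits that left out 1 library 0 to 4 rose and 3 to 7 fell, with none higher without replicate 3 of 24 h or without sham replicate 1). At 72 h 4 rose and 14 fell, or 8 and 3 with library totals. Tcf15, a factor of capillary endothelium, fell by 1.02 at 6 h and by 2.29 at 72 h. Of 17 junction genes, which include Pecam1 and Cdh5, 5 rose and 3 fell at 6 h, 2 rose and 6 fell at 24 h, and 2 rose and 10 fell at 72 h (7 and 5 with library totals). Ctnna1, the alpha-catenin that links cadherins to actin, fell by 0.83 at 72 h and is made by cardiomyocytes as well.

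Markers of endothelial subtypes were counted in the same way, and differences between these lists were not tested. Of 12 capillary markers 4 rose and 2 fell at 6 h, and 5 fell at 24 h. All 12 fell at 72 h (11 with library totals, none higher), with a median log2 fold change of -1.84. The water channel gene Aqp1 fell by 2.64 and the lipid-binding protein gene Fabp4 by 0.89. Of 12 arterial markers 1 rose and 3 fell at 6 h, 4 fell at 24 h, and 2 rose and 5 fell at 72 h (5 and 2 with library totals). The connexin gene Gja4 was not called (-0.12 at 72 h; 0.47, adjusted p = 0.00605, with library totals), and the semaphorin gene Sema3g fell to 0.442 of its sham level. Of 9 venous markers 5 rose at 6 h, 3 rose and 3 fell at 24 h, and 4 rose and 3 fell at 72 h (6 and 1 with library totals). Lrg1 rose by 2.43 at 6 h and fell by 0.89 at 72 h, and Cpe fell by 0.92 at 72 h.

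Of 8 endocardial markers 2 rose at 6 h, 6 fell at 24 h, and 1 rose and 4 fell at 72 h (5 and 1 with library totals). Tmem100 and Cytl1, with the highest levels per length, fell by 0.95 and 1.71 at 72 h. Of 6 lymphatic markers tested 1 rose at 6 h, 1 rose and 2 fell at 24 h, and 1 rose and 3 fell at 72 h (2 and 1 with library totals). Pdpn, which fibroblasts and macrophages also express, rose by 3.21 at 72 h, and the hyaluronan receptor gene Lyve1 fell by 1.09. Of 12 genes of tip cells and activated endothelium 5 rose and 2 fell at 6 h, 7 rose and none fell at 24 h, and 7 rose and 1 fell at 72 h (10 and 0 with library totals). Lamb1, a laminin chain, rose by 0.77 at 72 h, and the Notch ligand gene Dll4 fell by 0.98. With library totals the 72 h calls of Lrg1 (-0.31), Tmem100 (-0.38), Lyve1 (-0.51) and Dll4 (-0.40) were lost. Several of these lists share genes with each other, and many of their genes are also made by other cells of the heart.

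**Figure D5:**
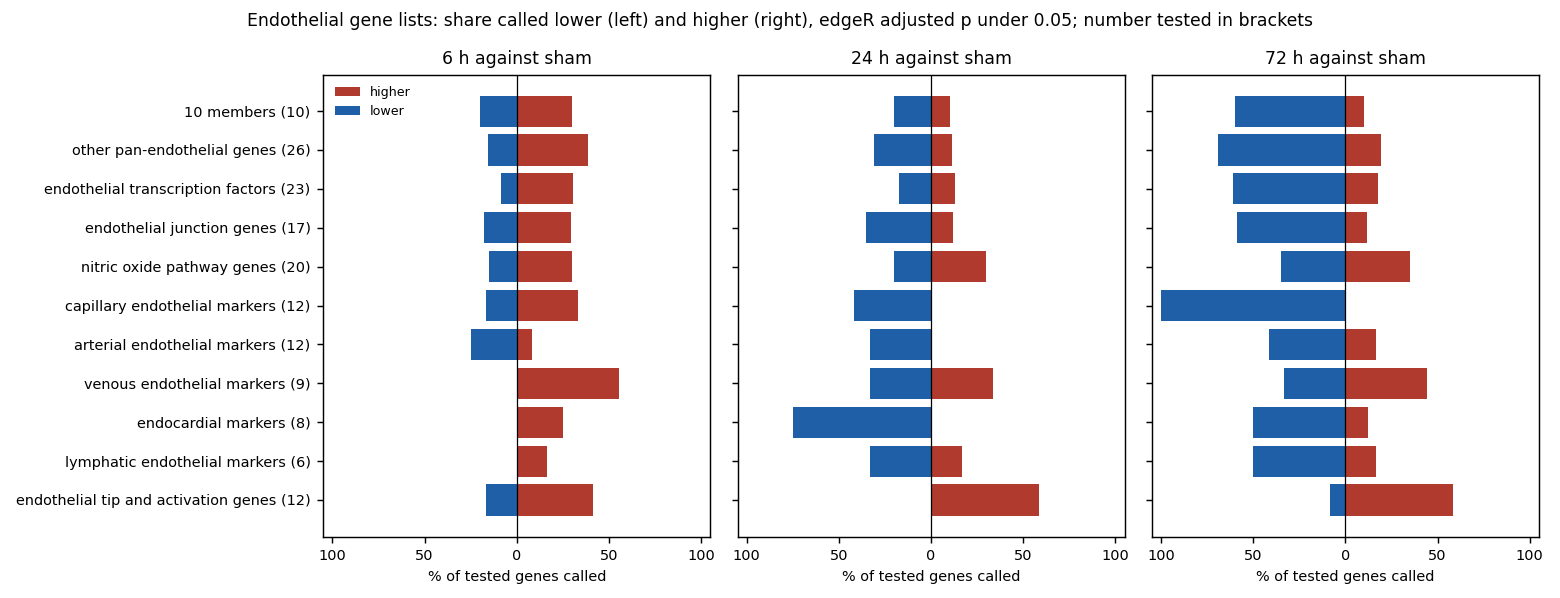
Share of each endothelial gene list that edgeR called lower (left of 0) or higher (right of 0) than sham at 6 h, 24 h and 72 h, in percent of the genes tested, with TMM scaling. Each row is 1 list with its number of tested genes in brackets. The 6 h panel includes replicate 1 of 6 h. At 72 h all 12 capillary markers are on the lower side, and 7 of 12 tip and activation genes on the higher side. Of all genes tested, 34.2% were called higher and 32.2% lower at 72 h.

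Markers of the other cell types of the heart moved at the same times. All 8 cardiomyocyte markers fell at 72 h, when their sum ran from 15005 to 19746 CPM, Actc1 falling by 1.19 and Myl2 by 2.32. All 7 fibroblast markers rose at 72 h, and their sum went from 696 to 749 CPM in sham to 8001 to 10264, Col1a1 rising by 5.58. Of 9 mural markers 3 rose and 5 fell at 72 h (4 and 4 with library totals), and all 5 red blood cell markers fell at 72 h (1 with library totals). Among leukocyte markers Lyz2 rose by 4.19 and S100a9 by 3.49 at 72 h, and among platelet markers Pf4 rose by 3.15. The part of these shifts in cell content in the levels of the 10 genes was not tested.

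Among themselves, the 10 genes were most alike in the pair Cdh5 and Erg, with a Pearson correlation of log2 CPM of 0.93 over the 18 libraries. Pecam1 and Cdh5 followed at 0.86, Pecam1 and Nos3 at 0.79, Cdh5 and Nos3 at 0.78, and Egfl7 and Sox18 reached 0.67. Of 11663 other genes that averaged 50 counts or more, those whose pattern was most like the mean of the 10 were Robo4 and Pdgfb (0.88 each), and Eng, Notch1 and Shank3 (0.86 each). The single gene most like each member was Akap12 for Pecam1 (0.96), Ece1 for Cdh5 (0.91), Gbp4 for Emcn (0.85), Rasl12 for Egfl7 (0.86) and Tmem252 for Erg (0.88). It was Abra for Sox17 (0.92), Brf2 for Sox18 (0.72), Ecm1 for Plvap (0.97), Rasip1 for Nos3 (0.94) and Chek2 for Aplnr (0.98). Chek2, a checkpoint kinase gene, held 6.02 ± 0.367 CPM in sham, 2.36 ± 0.149 at 6 h and 8.74 ± 0.563 at 72 h (SD, n = 3). These correlations describe 18 libraries that share 6 groups, so any genes that follow the time course correlate.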

How the data were processed

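Poly(A) RNA-seq was made from 18 mouse hearts, 1 library per mouse in 6 groups of 3. Per the submitters' processing notes, the authors trimmed reads with cutadapt 1.18, aligned them with HISAT2 2.1.0 to mm10 and counted them with featureCounts. The authors deposited whole-number counts per gene and FPKM values, in which the columns of 2 libraries (6 h replicates 2 and 3) follow each other's counts. Both are of the same group, so group fits on FPKM are the same either way. Libraries held 18199172 to 25062351 counts, without molecular identifiers, so PCR copies are included. From the counts, edgeR 4.0.16 (R 4.3.3; filterByExpr, TMM, robust quasi-likelihood fit, 1 mean per group, two-sided, Benjamini-Hochberg over 16311 genes, threshold 0.05) gave the main tests. All 18 libraries were in 1 fit, so p-values measure the spread between mice of a group as shared by the 6 groups. A library outside the groups compared can therefore change a p-value. DESeq2 1.42.0, limma 3.58.1 on log2(FPKM + 1) and log2(FPKM + 0.1), other scalings and filters, a replicate block and leaving out each library were alternatives. Symbols and coordinates came from GENCODE M21 (30489 of 30583 identifiers matched). The FPKM used for levels were computed from the counts and the gene lengths implied by the deposited FPKM. Members and the 18 marker lists were chosen with earlier results of these data known. Named list genes were the 2 of highest mean FPKM per list, the apelin genes (one is not reported here), Sox7, Fli1, Klf4 (named after its value was seen) and the genes most correlated with the members. Tests were tried on simulated counts first.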

Additional observations from a re-analysis of the deposited data

Results flagged for a closer look

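Each of the following passed the edgeR test of the difference between 2 consecutive times, so the change of that gene from sham differed between them. From 10 min to 1 h Sox17 rose by 0.95 on the log2 scale (SE 0.18, adjusted p = 0.0262), higher in 3 of 3 mice, and the call was lost without any 1 of the 6 libraries compared (0.88 to 1.03, adjusted p = 0.0554 to 0.198).

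From 1 h to 6 h Pecam1 rose by 0.65 (adjusted p = 0.00113), Cdh5 by 0.53 (adjusted p = 0.015) and Nos3 by 0.72 (adjusted p = 0.00673), and Aplnr changed by -1.78 (adjusted p = 0.00299). For all 4 genes the groups did not overlap. The Cdh5 call was lost without 1 h replicate 1 (0.49, adjusted p = 0.0609) and without 6 h replicate 1 (0.34, adjusted p = 0.12).

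From 6 h to 24 h Pecam1 changed by -0.54 (adjusted p = 0.00331), Cdh5 by -0.55 (adjusted p = 0.0108), Erg by -0.33 (adjusted p = 0.0248), Sox17 by -0.74 (adjusted p = 0.00564) and Aplnr by 1.10 (adjusted p = 0.0341). The groups overlapped for Sox17 and for no other of the 5. With library totals the 4 lower calls were lost, with Pecam1 at -0.24 (adjusted p = 0.112), Cdh5 at -0.23 (adjusted p = 0.208), Erg at -0.02 (adjusted p = 0.893) and Sox17 at -0.42 (adjusted p = 0.0565). Egfl7 (0.50, adjusted p = 0.0176) and Plvap (0.72, adjusted p = 0.0167) were then called higher beside Aplnr, and limma on log2(FPKM + 1) or log2(FPKM + 0.1) lost the same 4 calls and called the same 3 genes. Without 6 h replicate 1, Cdh5 was at -0.36 (adjusted p = 0.0759) and Erg at -0.18 (adjusted p = 0.173). Erg was at -0.27 (adjusted p = 0.0973) without 24 h replicate 1 and at -0.34 (adjusted p = 0.051) without 24 h replicate 2. Aplnr was at 0.50 (adjusted p = 0.224) without 24 h replicate 2 and at an adjusted p of 0.0657 to 0.0951 without any 1 library of 6 h.

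From 24 h to 72 h Egfl7 changed by -0.51 (adjusted p = 0.00616), Sox17 by -1.05 (adjusted p = 0.000123), Plvap by 1.74 (adjusted p = 9.86e-06), Nos3 by -0.95 (adjusted p = 0.0002) and Aplnr by 2.06 (adjusted p = 0.000152). The groups did not overlap for any of the 5, and each stayed past the threshold in all 18 fits that left out 1 library. With library totals Egfl7 was at -0.13 (adjusted p = 0.516) and was no longer called, while Emcn (0.46, adjusted p = 0.00189) and Erg (0.28, adjusted p = 0.0333) were called higher, and limma at either pseudocount changed the same 3 calls. Differences between consecutive times that were not called with all 18 libraries, but were called when 1 was left out, were those of Emcn, Erg and Sox17 from 1 h to 6 h, Egfl7 from 6 h to 24 h, and Pecam1 and Cdh5 from 24 h to 72 h.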

How the results depend on the processing

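Counts of the 10 genes called changed with the processing as follows. At 10 min against sham 1 was called without the low-count filter, with DESeq2 and with only the 6 libraries compared, in place of 0. At 1 h 1 was called with DESeq2 and with only the 6 libraries. At 24 h 6 were called with library totals and with limma at either pseudocount, in place of 3, and at 72 h 3 in place of 7. Between 10 min and 1 h 0 were called without the filter, with limma on log2(FPKM + 1) and with the replicate block, in place of 1. Between 6 h and 24 h 3 were called with library totals, without the filter and with limma at either pseudocount, and 0 with only the 6 libraries, in place of 5. Leaving out 1 library gave 0 to 1 for 10 min and likewise for 1 h, 4 to 6 for 6 h, 3 to 6 for 24 h and 5 to 8 for 72 h. Between consecutive times it gave 0 to 1, 3 to 6, 2 to 5 and 5 to 7, and for any difference 8 to 9. The number called among all genes also changed over the 10 alternatives other than leaving out 1 library. Against sham it ran from 3 to 360 at 10 min (12 in the main fit) and 43 to 190 at 1 h (48). It ran from 5509 to 7363 at 24 h (7149) and 9016 to 11973 at 72 h (10831). From 10 min to 1 h it ran from 46 to 244 (50), and from 6 h to 24 h from 1024 to 6880 (4541). At 72 h against sham the direction turned with library totals for Pecam1 (0.42), Cdh5 (0.11), Egfl7 (0.18), Erg (0.23), Nos3 (0.026) and Sox18 (0.46), of which Sox18 was not called on either scale. With limma on log2(FPKM + 1) these were at 0.41, 0.092, 0.18, 0.21, 0.018 and 0.44, and on log2(FPKM + 0.1) at 0.41, 0.093, 0.18, 0.22, 0.019 and 0.45, in the same order. From 24 h to 72 h Erg was at 0.28, 0.27 and 0.28 in the same 3 settings. These 3 settings do not use composition factors. All other causes were not tested.

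A replicate block was fitted although the numbers do not pair the mice: same-numbered libraries correlated with a median of 0.04 over 45 pairs (-0.26 to 0.25), and 6 of 18 libraries were best matched by their own number. With the block the 3 later comparisons with sham called 5, 3 and 7 of the genes. With 3 mice a group, an exact permutation test of 1 gene could not go below p = 0.1.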
